A study of Mus musculus with 12 samples.

Results

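The genes described here are 10 surface markers used to recognise mesenchymal progenitor cells: Ly6a, Ly6c1, Ly6e, Thy1, Cd34, Nt5e, Alcam, Cd44, Vcam1 and Abcg2. They were chosen by name, each matched 1 row among the 34174 genes measured, and all 10 passed the filter on low values. RNA of cultured mouse cardiac stem cells, cells of the heart grown on gelatin, was sequenced to compare c-kitCre mice, which carry a Cre recombinase knock-in at the Kit gene, with wild-type mice. The labels give 3 cultures for c-kitCre (WcreCSCs) and 3 for wild-type (wtCSCs), 2 libraries for each, and the same C57BL/6 strain and culture in 21% oxygen, 5% CO2 and 10% serum for both. They give no age or sex, name no treatment, and do not say whether the 3 cultures of a label came from separate animals, so p-values measure the spread between these cultures, which may be technical. The 2 libraries of a culture are merged into 1 value in the files, so n = 3 for each label throughout. Levels are scaled reads, the merged read value of a gene times a factor per culture set by the authors, and they carry no gene length.

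The raw values of a culture summed to between 22371439 and 35963488. Kit, the gene that carries the knock-in, had 1732, 1738 and 1603 scaled reads in the cultures labelled c-kitCre, against 3.38, 1.55 and 1.17 in those labelled wild-type. Kit RNA was thus almost missing from the cultures labelled wild-type, which goes against the labels, and every direction below rests on the labels as given. Xist, the RNA of the inactive X chromosome, had 29.8, 64.6 and 50.9 scaled reads in cultures labelled c-kitCre, against 30654, 36447 and 39035 in those labelled wild-type, and what part that difference has in any result was not tested. Genes of the Y chromosome were low under both labels, and none passed. Kdm5d averaged 51.2 in c-kitCre and 79.2 in wild-type cultures, Uty 19.6 and 13.8, and Ddx3y 3.95 and 1.52. Eif2s3y averaged 19.2 in c-kitCre and 6.98 in wild-type cultures, without overlap (limma, adjusted p = 0.0574). Of 24151 genes tested, 8578 passed an adjusted p of 0.05 (limma, Benjamini-Hochberg over all genes). The median log2 difference was 0.04 over all genes and -0.14 over those averaging 50 scaled reads or more.

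Surface markers sort progenitor cells of stroma because they can be stained on living cells. Ly6a (Sca-1), Ly6c1, Ly6e, Thy1 (CD90) and Nt5e (CD73) encode proteins held in the outer membrane by a glycosylphosphatidylinositol (GPI) anchor, whereas Cd34, Alcam (CD166), Cd44, Vcam1 (CD106) and Abcg2 encode proteins that span the membrane. Sca-1 has been used to isolate progenitor cells from the mouse heart, CD73 and CD90 belong to the antigens by which cultured human mesenchymal stromal cells are defined, and Abcg2 pumps out the dye that marks side population cells.

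The 10 markers did not move together. Thy1, Nt5e and Cd34 were higher in the cultures labelled c-kitCre, Ly6a and Ly6c1 were lower, and Ly6e, Alcam, Cd44, Vcam1 and Abcg2 did not pass the test. The 3 of 10 that were higher stand beside 16.2% of all genes tested, and the 2 of 10 that were lower beside 19.3%. The values of the groups did not overlap for 6 markers, 3 higher and 3 lower in c-kitCre cultures, where 26.1% and 27.0% of all genes lay apart in those directions. Among the 5 GPI-anchored proteins' genes, 2 were higher, 2 were lower and Ly6e did not pass; among the 5 others, Cd34 passed. The median log2 difference of the 10 was -0.12, near the -0.14 of all genes averaging 50 scaled reads or more. In RNA of whole cultures, fewer cells of a type and less RNA per cell cannot be told apart.

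**Figure D1:**
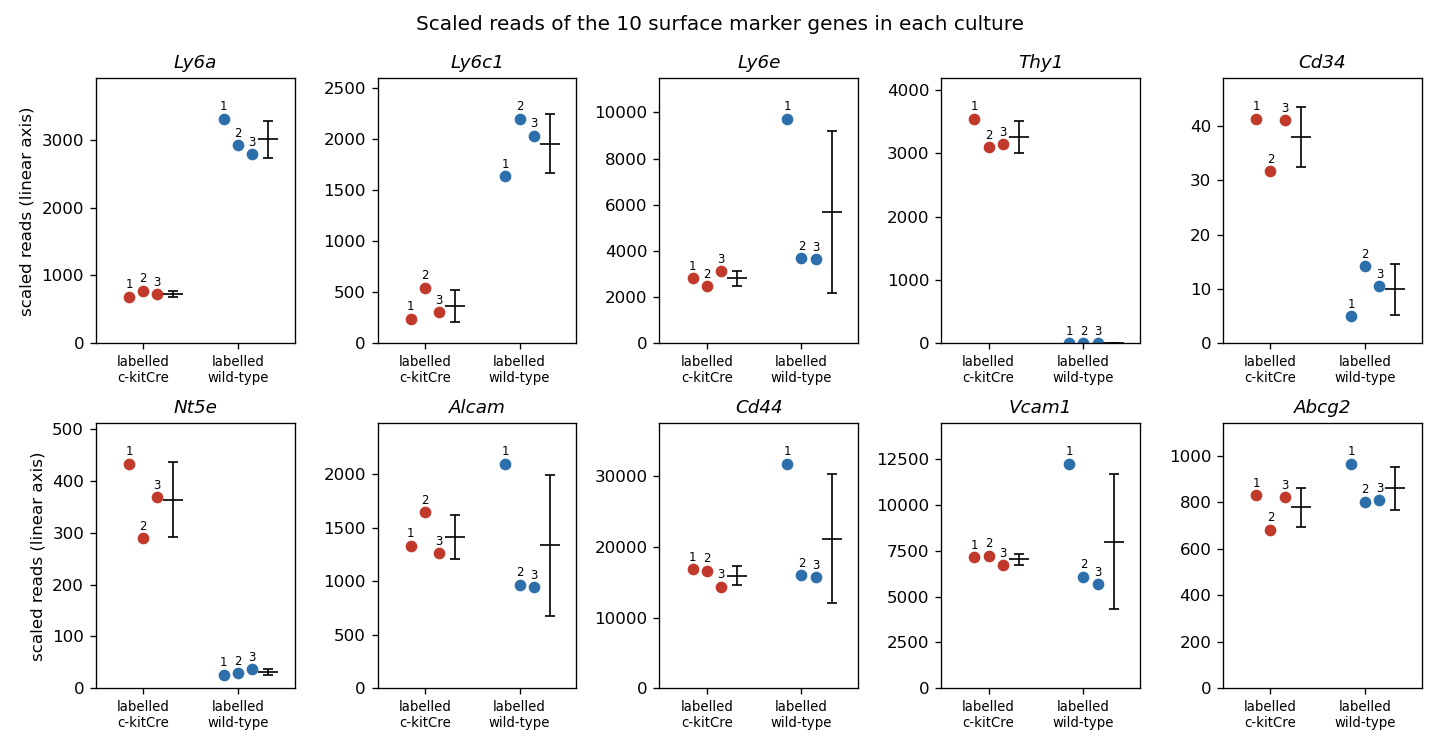
Scaled reads of the 10 marker genes on linear axes that start at 0, with numbered points for the 3 cultures labelled c-kitCre (left, red) and the 3 labelled wild-type (right, blue), and the mean with its SD in black. Thy1 stands between 3096 and 3547 scaled reads in the c-kitCre cultures and between 2.67 and 4.69 in the wild-type cultures, while wild-type culture 1 is the high point for Ly6e, Alcam, Cd44 and Vcam1.

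Ly6a, Ly6c1 and Ly6e lie in the Ly6 cluster on chromosome 15 and are relatives of each other, which matters for how reads are assigned. The first 150 coding bases (GENCODE M21, build GRCm38, which is mm10) of these genes and of Ly6c2, the nearest relative of Ly6c1, are shown 5′ to 3′ on each gene's own strand, with capitals at the bases that differ from Ly6c1.
Ly6c1: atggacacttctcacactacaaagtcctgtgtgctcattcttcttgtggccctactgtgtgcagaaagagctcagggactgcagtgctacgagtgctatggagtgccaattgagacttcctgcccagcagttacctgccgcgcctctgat
Ly6c2: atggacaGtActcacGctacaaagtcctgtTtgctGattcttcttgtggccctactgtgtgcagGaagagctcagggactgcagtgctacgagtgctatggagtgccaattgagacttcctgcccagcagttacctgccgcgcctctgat
Ly6a: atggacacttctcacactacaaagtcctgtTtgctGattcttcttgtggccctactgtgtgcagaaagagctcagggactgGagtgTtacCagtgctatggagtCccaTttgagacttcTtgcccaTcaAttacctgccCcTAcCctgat
Ly6e: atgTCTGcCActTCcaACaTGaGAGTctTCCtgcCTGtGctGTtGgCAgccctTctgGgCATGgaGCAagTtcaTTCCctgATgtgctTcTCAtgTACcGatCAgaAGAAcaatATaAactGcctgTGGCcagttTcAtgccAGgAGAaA
Ly6c1 and Ly6c2 differ at 6 of these bases, Ly6c1 and Ly6a at 14, and Ly6c1 and Ly6e at 74. Over aligned whole coding sequences, Ly6a and Ly6c1 were identical at 81.8% of positions and Ly6c1 and Ly6c2 at 97.7%, with identical runs of up to 48 and 188 bases, while Ly6a and Ly6e matched at 49.3%. Reads were 100 bp long, and of all 100-base windows of the annotated transcripts, 1.45% of those of Ly6a occur also in another gene (Ly6c1), 10.1% of those of Ly6c1 (in Ly6a or Ly6c2), and 0 of those of the other 8 markers. How reads shared by these genes were counted is not given in the sources used here, so the split between Ly6c1 and Ly6c2 is uncertain. Ly6c2 was counted at 1.73, 0.656 and 0 scaled reads in c-kitCre cultures, against 2.44, 5.98 and 5.20 in wild-type cultures.

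Ly6a (chr15:74994877-74998031, minus strand), which encodes the antigen Sca-1, had 687, 778 and 722 scaled reads in the cultures labelled c-kitCre, against 3307, 2917 and 2784 in those labelled wild-type. The c-kitCre cultures all lay far under the wild-type ones, and cultures of 1 label lay close together. The means were 729 ± 45.8 in c-kitCre cultures and 3002 ± 272 in wild-type cultures (SD, n = 3 each), 4.12-fold apart, with a log2 difference of -2.04 ± 0.12 (SE; limma, adjusted p = 0.000144). Sca-1 RNA was thus lower but still present in the c-kitCre cultures.

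Ly6c1 (chr15:75044018-75048830, minus strand), which encodes an antigen of monocytes and of endothelial cells, had 243, 545 and 308 scaled reads in the c-kitCre cultures and 1632, 2194 and 2031 in the wild-type cultures. The groups did not overlap, and culture 2 was the high one among those labelled c-kitCre, 0.99 above the others on the log2 scale. The log2 difference was -2.49 ± 0.31 (SE; limma, adjusted p = 0.00184), with group means 5.34-fold apart.

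Ly6e (chr15:74955051-74959905, plus strand), a broadly expressed relative whose product is a receptor for mouse syncytin-A, had 2837, 2486 and 3126 scaled reads in c-kitCre cultures, against 9724, 3698 and 3636 in wild-type cultures. All c-kitCre values were under all wild-type values, but wild-type culture 1 stood far above the other wild-type cultures. The log2 difference of -0.86 ± 0.40 (SE; limma, adjusted p = 0.146) did not pass, and without wild-type culture 1 it was -0.39 (limma, adjusted p = 0.0654). With cultures centred on the median of all genes tested it was -1.21 and passed (limma, adjusted p = 0.0413).

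A ratio of 2 genes within a culture is free of the scaling between cultures where both genes are well expressed. The log2 ratio of Ly6a to Ly6c1 was 1.08 ± 0.51 in c-kitCre cultures and 0.63 ± 0.34 in wild-type cultures (SD, n = 3 each; exact two-sided permutation test, p = 0.2). The ratio of Ly6a to Ly6e was -1.95 ± 0.24 in c-kitCre cultures and -0.76 ± 0.69 in wild-type cultures (exact permutation p = 0.1, the smallest that 3 cultures against 3 allow), without overlap. That of Ly6c1 to Ly6e was -3.03 ± 0.73 in c-kitCre cultures and -1.39 ± 1.03 in wild-type cultures (exact permutation p = 0.2). Adjusted over the 4 ratios computed, which include Thy1 to Ly6a, each p was 0.2, so none of them passed.

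Of the neighbours in the cluster, Ly6i, whose start lies 14.6 kb from that of Ly6a, had 2.49, 4.57 and 3.06 scaled reads in c-kitCre cultures, against 25.1, 20.4 and 13.9 in wild-type cultures (log2 difference -2.12 ± 0.25, SE; limma, adjusted p = 0.00144). Lynx1, whose product modulates nicotinic acetylcholine receptors, lies 245 kb away and averaged 54.2 ± 7.54 scaled reads in c-kitCre cultures and 407 ± 86.8 in wild-type cultures (SD, n = 3 each), a log2 difference of -2.90. Psca, beyond Lynx1 on the same side of Ly6a, went the other way, at 24.0 ± 9.56 in c-kitCre cultures and 6.76 ± 4.32 in wild-type cultures (SD, n = 3 each; limma, adjusted p = 0.0304). Without wild-type culture 2 the wild-type mean of Psca was 4.47, and the call was lost in 7 of 17 alternative settings. Several genes of the cluster, Ly6c2, Ly6f, Ly6i and Lypd2 among them, were under the authors' floor of 4.41 scaled reads in the c-kitCre cultures or nearly so, and their log2 differences depend on that floor.

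**Figure D2:**
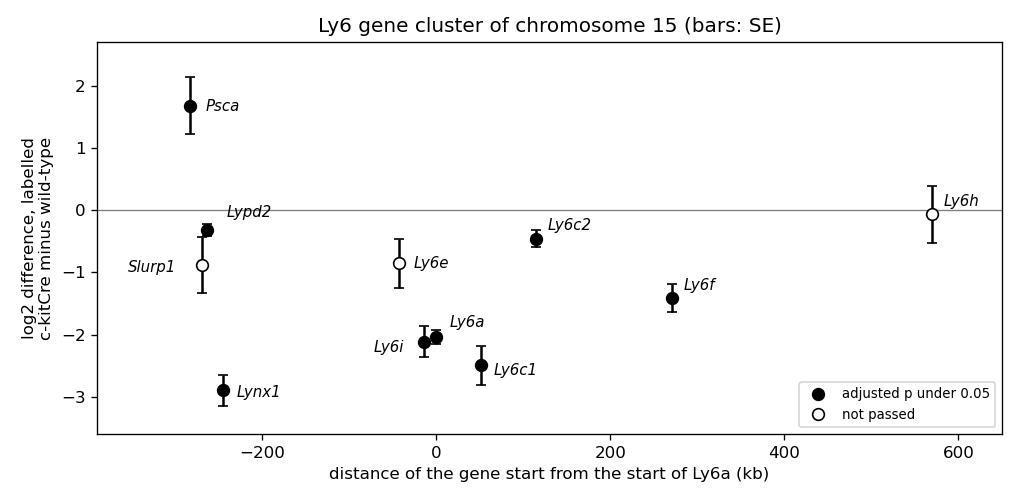
Log2 difference (labelled c-kitCre minus labelled wild-type, with SE) of the tested genes of the Ly6 cluster on chromosome 15, against the distance in kb of each gene's start from that of Ly6a. Ly6i, Ly6a and Ly6c1 lie between -2.04 and -2.49, Ly6e at -0.86 and Psca at 1.68.

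Of 30 further genes of the Ly6 and urokinase receptor family, 17 were tested, of which 2 were higher, 8 lower and 7 did not pass in the c-kitCre cultures. Their median log2 difference was -0.46, beside 0.04 for all genes. Over all genes tested 16.2% were higher and 19.3% lower, the shares to set beside this count and those of the lists below. Cd59a, an inhibitor of complement on the cell surface, averaged 12.7 ± 5.62 scaled reads in c-kitCre cultures and 116 ± 44.0 in wild-type cultures (SD, n = 3 each), a log2 difference of -3.22 (limma, adjusted p = 0.00261). Its close copy Cd59b stood at 29.7 scaled reads in c-kitCre cultures and 33.6 in wild-type cultures, and Ly6h at 25.6 in c-kitCre cultures and 24.9 in wild-type cultures, and neither passed.

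Thy1 (chr9:44043384-44048579, plus strand), the gene of CD90, a small immunoglobulin-type protein of fibroblasts, T cells and neurons that binds integrins, had 3547, 3096 and 3143 scaled reads in the cultures labelled c-kitCre. In the cultures labelled wild-type it had 3.52, 4.69 and 2.67, at or near the floor. Its RNA was thus abundant in every culture of one label and almost missing in every culture of the other. The means were 3262 ± 248 scaled reads in c-kitCre cultures and 3.63 ± 1.01 in wild-type cultures (SD, n = 3 each), a ratio of 899. On the deposited log2 values, in which low values are raised towards the floor, the difference was 9.41 ± 0.21 (SE; limma, adjusted p = 3.11e-05). On the same values the log2 ratio of Thy1 to Ly6a was 2.37, 1.99 and 2.12 in the c-kitCre cultures and -9.29, -9.28 and -9.30 in the wild-type cultures. Some wild-type Thy1 values were raised in this way, so the closeness of the wild-type ratios depends on that step.

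Nt5e (chr9:88327197-88372092, plus strand) encodes CD73, which turns extracellular AMP into adenosine, and had 432, 289 and 368 scaled reads in c-kitCre cultures, against 26.7, 29.4 and 37.2 in wild-type cultures. The groups lay far apart, with a modest spread inside each. Means were 363 ± 72.0 in c-kitCre cultures and 31.1 ± 5.47 in wild-type cultures (SD, n = 3 each), 11.7-fold apart, and the log2 difference was 3.54 ± 0.27 (SE; limma, adjusted p = 0.00033).

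Around CD73 in the adenosine pathway, 20 genes were tested, of which 7 were higher, 5 lower and 8 did not pass, with a median log2 difference of 0.14. Enpp1 and Enpp3, ectonucleotidases that release AMP from ATP, averaged 237 ± 25.5 and 324 ± 88.0 scaled reads in c-kitCre cultures, against 20.7 ± 1.83 and 23.2 ± 18.4 in wild-type cultures (SD, n = 3 each; limma, adjusted p = 0.000263 and 0.00365). Without wild-type culture 1 the wild-type mean of Enpp3 was 12.8. Alpl, the tissue-nonspecific alkaline phosphatase and itself an antigen of stromal progenitors, averaged 87.6 ± 26.3 in c-kitCre cultures and 8.15 ± 3.97 in wild-type cultures (limma, adjusted p = 0.00196). Adora2b, an adenosine receptor, averaged 128 ± 18.5 in c-kitCre cultures and 16.9 ± 6.78 in wild-type cultures (limma, adjusted p = 0.00191). The genes with the highest levels that did not pass, Adk (adenosine kinase) and Entpd5, stood at 1376 and 937 scaled reads in c-kitCre cultures, against 1364 and 911 in wild-type cultures.

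Of 29 rows for genes that build or attach the GPI anchor, 4 were higher, 11 lower and 14 did not pass, with a median log2 difference of -0.50. Pigb is counted in these under separate gene IDs, neither of which passed. Among all genes tested, 16.2% were higher and 19.3% lower. The first step, which adds N-acetylglucosamine to phosphatidylinositol, is done by a complex whose genes were mixed: Piga, Pigc and Pigh were higher, Pigq, Pigy and Dpm2 were lower, and Pigp did not pass. Piga, the catalytic subunit, averaged 1727 ± 297 scaled reads in c-kitCre cultures and 348 ± 21.8 in wild-type cultures (SD, n = 3 each; limma, adjusted p = 0.000237). Pigc was higher in every c-kitCre culture, but the size of its difference rested mostly on culture 2. It had 1094, 11534 and 2564 in c-kitCre cultures, against 642, 455 and 453 in wild-type cultures (limma, adjusted p = 0.0479). Without c-kitCre culture 2 the c-kitCre mean was 1829, and the call was lost in 8 of 17 alternative settings. Pgap1, which removes a fatty acid from the finished anchor, averaged 968 ± 77.9 in c-kitCre cultures and 228 ± 53.8 in wild-type cultures (limma, adjusted p = 0.000713). Pigw, which adds that fatty acid, averaged 23.5 ± 12.3 in c-kitCre cultures and 222 ± 14.4 in wild-type cultures (limma, adjusted p = 0.00153).

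Cd34 (chr1:194938819-194961279, plus strand), a sialomucin of blood progenitors, endothelium and some stromal cells, was the marker with the lowest level in the c-kitCre cultures, at 41.3, 31.7 and 41.1 scaled reads, against 4.99, 14.2 and 10.6 in the wild-type cultures. The groups did not overlap. Means were 38.0 ± 5.51 in c-kitCre cultures and 9.93 ± 4.65 in wild-type cultures (SD, n = 3 each), and the log2 difference was 1.99 ± 0.40 (SE; limma, adjusted p = 0.0105). An antisense gene on the other strand, Gm16897, overlaps Cd34 and had 22.5, 32 and 17.3 scaled reads in c-kitCre cultures, against 15.6, 19.1 and 13.4 in wild-type cultures. Whether strand was used in counting is not given in the sources used here, so reads of these 2 genes may not have been separated.

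Of 17 tested relatives and partners of Cd34, Alcam and Vcam1 (sialomucins, junction and immunoglobulin-type adhesion proteins), 4 were higher, 5 lower and 8 did not pass, with a median log2 difference of -0.48. Podxl2 (endoglycan), a sialomucin of the Cd34 family, had 141, 223 and 161 scaled reads in c-kitCre cultures, against 1.02, 4.21 and 1.93 in wild-type cultures (limma, adjusted p = 0.000134); without wild-type culture 2 the wild-type mean was 1.47. Mcam (CD146), an antigen of perivascular stromal cells, averaged 417 ± 60.7 in c-kitCre cultures and 67.7 ± 32 in wild-type cultures (SD, n = 3 each; limma, adjusted p = 0.00462). F11r, a tight junction protein, averaged 47.2 ± 16.9 in c-kitCre cultures and 453 ± 41.5 in wild-type cultures (limma, adjusted p = 0.000527), and Slc9a3r1, a scaffold that binds podocalyxin, averaged 116 ± 17.7 in c-kitCre cultures and 693 ± 79.4 in wild-type cultures (limma, adjusted p = 0.000287).

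Alcam, Cd44 and Vcam1, the adhesion receptors, did not pass the test, and for all 3 the value of wild-type culture 1 decided the group mean. Alcam (chr16:52248996-52454074, minus strand), which binds CD6 and itself, had 1333, 1648 and 1264 scaled reads in c-kitCre cultures, against 2097, 969 and 946 in wild-type cultures. The c-kitCre values fell between wild-type culture 1 and the other wild-type cultures. The log2 difference was 0.18 ± 0.33 (SE; limma, adjusted p = 0.702; 95% interval -0.63 to 0.98). Without wild-type culture 1 it was 0.55 and passed (limma, adjusted p = 0.0342), where 17.8% of 24030 genes were higher and 20.6% lower. With all cultures centred on the median of all genes tested it was -0.18.

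Cd44 (chr2:102811141-102901665, minus strand), the receptor for hyaluronan, had 16844, 16654 and 14382 scaled reads in c-kitCre cultures, against 31752, 15988 and 15775 in wild-type cultures. Apart from wild-type culture 1, which was about double the others, the 5 cultures lay within a narrow band. The log2 difference was -0.33 ± 0.30 (SE; limma, adjusted p = 0.439; 95% interval -1.07 to 0.41), and it was 0.0035 without wild-type culture 1. Vcam1 (chr3:116109949-116129688, minus strand), the endothelial and stromal ligand of integrin α4β1, showed the same arrangement, with 7164, 7223 and 6702 in c-kitCre cultures, against 12228, 6090 and 5669 in wild-type cultures. Its log2 difference was -0.09 ± 0.30 (SE; limma, adjusted p = 0.829; 95% interval -0.83 to 0.64), and without wild-type culture 1 it was 0.26 (limma, adjusted p = 0.103).

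Wild-type culture 1 was compared with the mean of the other wild-type cultures on the log2 scale. Ly6e was 1.41 above them there, Alcam 1.13, Vcam1 1.06 and Cd44 1.00, while Cd34 was 1.11 below (a difference of -1.11). Of the 13456 genes that averaged 50 scaled reads or more, 7.70% were 0.9 or more above the others in that culture, against 1.07% and 0.899% in wild-type cultures 2 and 3. In the c-kitCre cultures the shares were 1.47%, 4.98% and 2.13%. The shares 0.9 or more below the others were 6.73%, 1.98% and 2.48% in wild-type cultures 1, 2 and 3 and 2.17%, 8.06% and 1.26% in c-kitCre cultures 1, 2 and 3, so that c-kitCre culture 2 also stood apart, with Ly6c1 the 1 marker 0.9 or more above its group there. What sets these cultures apart was not tested. Thy1, Nt5e, Cd34, Ly6a and Ly6c1 were called in the same direction without wild-type culture 1, with Cd34 at a log2 difference of 1.62. They were also called so without c-kitCre culture 2, with Cd34 at 2.12.

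**Figure D3:**
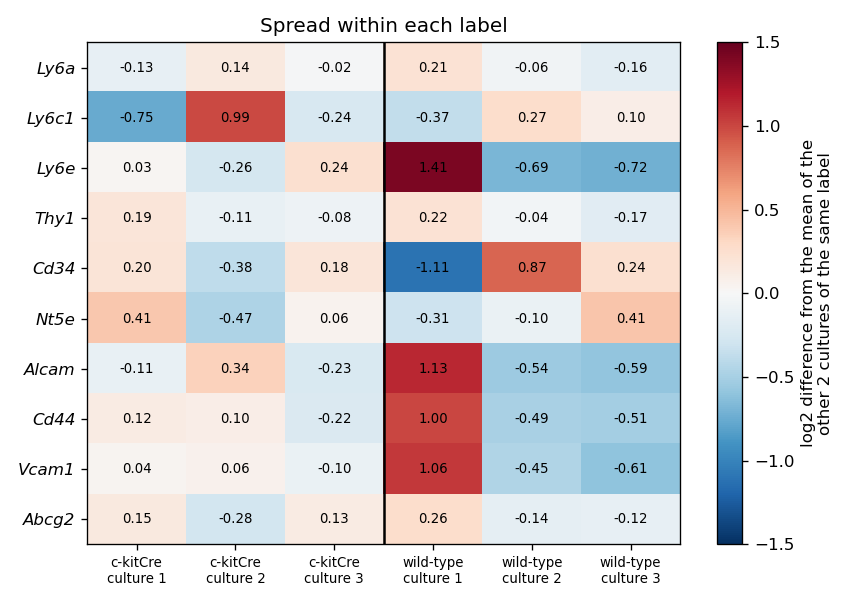
Log2 difference of each culture from the mean of the other 2 cultures with its label, for the 10 marker genes (rows), with c-kitCre cultures left of the line and wild-type cultures right of it. Wild-type culture 1 holds values of 1.00 to 1.41 for Cd44, Vcam1, Alcam and Ly6e and -1.11 for Cd34, and c-kitCre culture 2 holds 0.99 for Ly6c1.

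Among 18 tested genes of hyaluronan metabolism and other Cd44 partners, 5 were higher, 2 lower and 11 did not pass, with a median log2 difference of 0.54. Has2, a hyaluronan synthase, had 2832, 2150 and 2882 scaled reads in c-kitCre cultures, against 890, 875 and 726 in wild-type cultures (log2 difference 1.65 ± 0.16, SE; limma, adjusted p = 0.000764). Its relative Has1 went the other way at a lower level, 72.3 ± 31.5 in c-kitCre cultures and 334 ± 145 in wild-type cultures (SD, n = 3 each; limma, adjusted p = 0.0129). Tnfaip6 (TSG-6), which modifies hyaluronan, averaged 361 ± 65.1 in c-kitCre cultures and 31.4 ± 16.0 in wild-type cultures (limma, adjusted p = 0.00149), and Hyal1, a hyaluronidase, 339 ± 174 in c-kitCre cultures and 65.8 ± 6.40 in wild-type cultures (limma, adjusted p = 0.00513). Spp1 (osteopontin), a secreted Cd44 ligand, had 154658, 86888 and 131256 scaled reads in c-kitCre cultures, against 139552, 35016 and 33026 in wild-type cultures. It did not pass (limma, adjusted p = 0.208), but without wild-type culture 1, the high one again, its log2 difference was 1.83 (limma, adjusted p = 0.0106).

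Of 11 tested integrins and co-receptors that bind Vcam1 or Thy1, 3 were higher, 2 lower and 6 did not pass, with a median log2 difference of 0.38. Itgb1, the β1 chain, averaged 41640 ± 3989 scaled reads in c-kitCre cultures and 11926 ± 2570 in wild-type cultures (SD, n = 3 each; limma, adjusted p = 0.00131), and Itga9, an α chain that pairs with it to bind Vcam1, 146 ± 24.6 in c-kitCre cultures and 5.87 ± 1.44 in wild-type cultures (limma, adjusted p = 0.000257). Itgb7, the other partner of the α4 chain, had 167, 146 and 133 in c-kitCre cultures, against 6368, 4016 and 3924 in wild-type cultures (log2 difference -4.98 ± 0.22, SE; limma, adjusted p = 7.32e-05). Itgb5, a partner of the αv chain, averaged 1383 ± 47.9 in c-kitCre cultures and 4795 ± 488 in wild-type cultures (limma, adjusted p = 0.000206). The αv chain Itgav itself, at 9975 in c-kitCre cultures and 7682 in wild-type cultures, did not pass (limma, adjusted p = 0.0716).

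Abcg2 (chr6:58584523-58695676, plus strand), the efflux pump of side population cells, had 830, 683 and 823 scaled reads in c-kitCre cultures, against 966, 803 and 810 in wild-type cultures. The groups overlapped and all 6 values lay close together. The log2 difference was -0.14 ± 0.14 (SE; limma, adjusted p = 0.473), and its 95% interval, -0.49 to 0.20, was the narrowest among the 5 markers that did not pass. The sign depended on scaling: it was -0.50 and passed with centring on the median of all genes tested (limma, adjusted p = 0.0338), and 0.07 with centring on genes of at least 50 scaled reads.

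Among 11 tested transporters of the multidrug families, 2 were higher, 4 lower and 5 did not pass, with a median log2 difference of -0.96. Abcb1b, a P-glycoprotein, had 1148, 558 and 1202 scaled reads in c-kitCre cultures, against 7362, 4079 and 4034 in wild-type cultures (limma, adjusted p = 0.00412). Abcc4 averaged 859 ± 177 in c-kitCre cultures and 3889 ± 201 in wild-type cultures (SD, n = 3 each; limma, adjusted p = 0.000379). Abcc3 had 8.26, 8.02 and 8.95 in c-kitCre cultures, against 268, 56.4 and 53.3 in wild-type cultures (limma, adjusted p = 0.00882), and without wild-type culture 1 the wild-type mean was 54.8. Abcb4, a phospholipid transporter, stood low at 16.8 ± 7.79 in c-kitCre cultures and 4.65 ± 0.25 in wild-type cultures (limma, adjusted p = 0.0115).

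**Figure D4:**
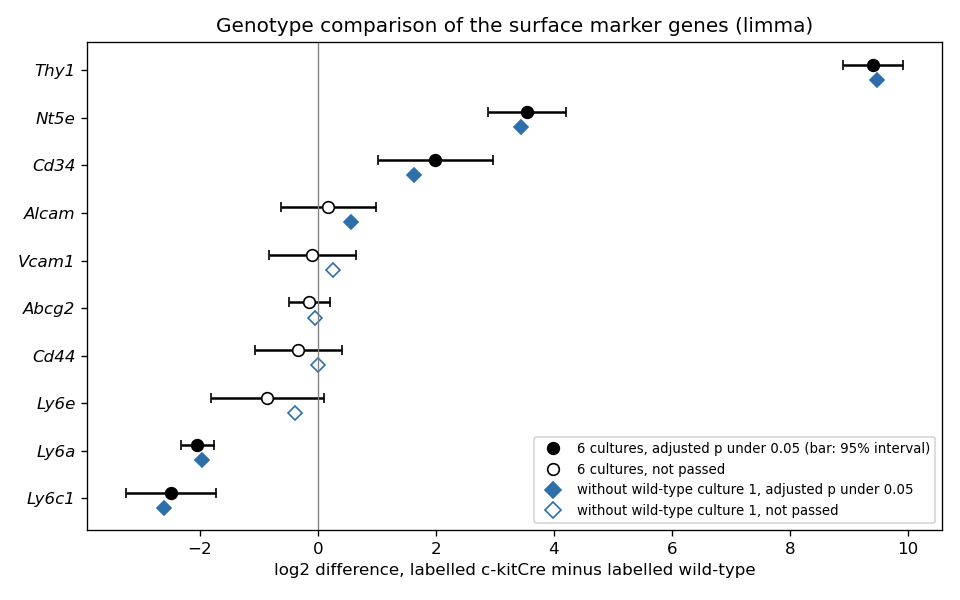
Log2 difference (labelled c-kitCre minus labelled wild-type) of the 10 marker genes with 6 cultures (circles, with the 95% interval) and without wild-type culture 1 (diamonds), filled where the adjusted p is under 0.05. Thy1 lies at 9.41, Ly6c1 at -2.49, and Alcam moves to 0.55 and is filled without wild-type culture 1.

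To compare the markers with each other, scaled reads were divided by the length of each gene's merged exons in kb. On this per-kb scale Cd44 had the highest mean in both groups, at 2355 ± 202 in c-kitCre cultures and 3125 ± 1352 in wild-type cultures (SD, n = 3 each). Thy1 came next in the c-kitCre cultures, at 1089 ± 82.8 per kb, and was the lowest of the 10 in the wild-type cultures, at 1.21 ± 0.34. After Thy1 in c-kitCre cultures came Vcam1 (793 ± 32.2 per kb), Ly6e (744 ± 84.8) and Ly6a (605 ± 38.0), then Ly6c1 (218 ± 94.6), Alcam (199 ± 28.8), Abcg2 (95.5 ± 10.2), Nt5e (42.2 ± 8.37) and Cd34 (5.22 ± 0.76). Of the neighbours in this order, only the ranges of Vcam1 and Ly6e and those of Ly6c1 and Alcam overlapped. In wild-type cultures Cd44 was followed by Ly6a (2492 ± 226 per kb), Ly6e (1503 ± 924), Ly6c1 (1164 ± 172), Vcam1 (901 ± 414), Alcam (188 ± 92.4), Abcg2 (105 ± 11.3), Nt5e (3.62 ± 0.64) and Cd34 (1.36 ± 0.64). There the neighbours from Cd44 through Vcam1 overlapped in range each with the next, as did Cd34 and Thy1, and the other neighbours did not.

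In the authors' deposited table of 4528 genes, whose smallest fold is 2.5 and in which a positive fold means higher in wild-type, 5 of the 10 markers appear. The folds in the authors' deposited table are -681 for Thy1, -11.6 for Nt5e, -3.98 for Cd34, 4.11 for Ly6a and 5.63 for Ly6c1. These are the same 5 markers that passed the test here. Both rest on the same deposited values, so the match adds no separate support.

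Of 33 further surface antigens of mesenchymal stromal cells, 10 were higher, 3 lower and 20 did not pass, with a median log2 difference of 0.42. Pdgfra, a growth factor receptor of stromal cells, had 9153, 7383 and 7695 scaled reads in c-kitCre cultures, against 1065, 329 and 346 in wild-type cultures (log2 difference 4.02 ± 0.46, SE; limma, adjusted p = 0.00131); without wild-type culture 1 the wild-type mean was 337. Cd200, a glycoprotein that restrains myeloid cells, had 317, 470 and 229 in c-kitCre cultures, against 1.19, 0.894 and 1.65 in wild-type cultures (limma, adjusted p = 0.000137). Anpep (CD13), an aminopeptidase, had 423, 626 and 393 in c-kitCre cultures, against 12.4, 0.751 and 6.07 in wild-type cultures (limma, adjusted p = 0.000269), with a wild-type mean of 3.41 without wild-type culture 1. Eng (CD105), which with CD73 and CD90 makes up the usual positive antigens, went the other way, at 472, 341 and 601 in c-kitCre cultures, against 2077, 3064 and 3155 in wild-type cultures (limma, adjusted p = 0.000891). Of the usual positive antigens the c-kitCre cultures thus held more Thy1 and Nt5e RNA and less Eng RNA.

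Of 16 antigens that mesenchymal stromal cells lack, 6 were tested, of which 0 were higher (1 at an unadjusted p under 0.05), 1 was lower and 5 did not pass by limma, with a median log2 difference of 0.26. Cd34, which was higher in the c-kitCre cultures, was counted among the markers and is not in this list. Ptprc (CD45), the common antigen of blood cells, had 1.65, 2.40 and 1.06 scaled reads in c-kitCre cultures, against 1.03, 1.79 and 1.10 in wild-type cultures, under the floor in all 6. Cd14, a receptor of macrophages, was the lower one, at 166, 80.6 and 142 in c-kitCre cultures, against 1366, 643 and 653 in wild-type cultures (limma, adjusted p = 0.00335). Pecam1 (CD31) had 41.4, 43.9 and 44.3 in c-kitCre cultures, against 65.3, 13.9 and 14.1 in wild-type cultures, and did not pass.

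**Figure D5:**
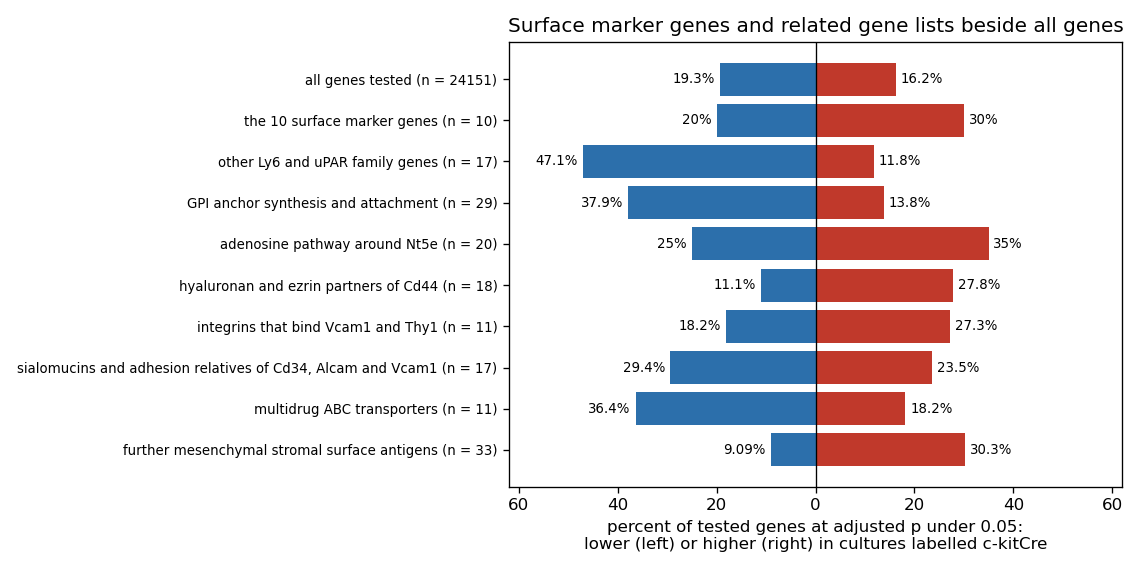
Percent of the tested genes of each list that were higher (right, red) or lower (left, blue) in the cultures labelled c-kitCre at an adjusted p under 0.05, with all genes tested at the top and the 10 markers next. All genes stand at 16.2% higher and 19.3% lower, and the 8 lists shown hold 11 to 33 tested genes, so that 1 gene moves a bar by several percent.

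Markers of other cell types differed between the same labels, and their part in the values above was not tested. Each list is given by its summed scaled reads and, chosen after the values were seen, by the sum without the gene whose group means differed most. Beside the counts called in each list stand 16.2% higher and 19.3% lower over all genes tested. The fibroblast list summed to 189945 to 262298 in c-kitCre cultures and 50592 to 56536 in wild-type cultures, with 11 of 15 tested genes higher, 0 lower (1 at an unadjusted p under 0.05) and 4 not passed by limma. Without the collagen chain Col1a2, which averaged 78574 ± 16325 in c-kitCre cultures and 3318 ± 343 in wild-type cultures (SD, n = 3 each), it summed to 123977 to 165284 in c-kitCre cultures and 46879 to 53398 in wild-type cultures. The pericyte and smooth muscle list summed to 8595 to 10160 in c-kitCre cultures and 4392 to 4767 in wild-type cultures, with 7 of 16 higher and 1 lower, and without Acta2 (smooth muscle actin) to 7377 to 7569 in c-kitCre cultures and 4358 to 4685 in wild-type cultures.

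For the other lists, the lower sum in the c-kitCre cultures rested on 1 gene each. Mesothelial and epicardial genes summed to 1150 to 1359 in c-kitCre cultures and 7222 to 9195 in wild-type cultures, with 3 of 11 higher and 2 lower. Without Msln (mesothelin), which averaged 43.5 in c-kitCre cultures and 6950 in wild-type cultures, they summed to 1112 to 1291 in c-kitCre cultures and 893 to 1300 in wild-type cultures, which overlap. The endothelial list summed to 4838 to 5667 in c-kitCre cultures and 6315 to 7308 in wild-type cultures, with 6 of 21 higher and 1 lower. The lower gene was Eng, also counted among the stromal antigens, and without it the sums were 4367 to 5326 in c-kitCre cultures and 3251 to 5231 in wild-type cultures. Cardiomyocyte genes summed to 744 to 930 in c-kitCre cultures and 2226 to 4134 in wild-type cultures, with 2 of 13 higher and 1 lower, and without that gene, Tnnt2 (cardiac troponin T), to 620 to 810 in c-kitCre cultures and 526 to 835 in wild-type cultures.

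The blood cell and macrophage list summed to 501 to 662 in c-kitCre cultures and 868 to 1647 in wild-type cultures, and without Cd14 to 359 to 581 in c-kitCre cultures and 225 to 281 in wild-type cultures, the opposite order. Of its 10 tested genes 3 were higher (Csf1r, Coro1a and Fcgr1) and 2 lower (Cd14 and Fcer1g). Csf1r, a growth factor receptor of macrophages, averaged 141 ± 22.9 in c-kitCre cultures and 30.8 ± 7.55 in wild-type cultures (SD, n = 3 each; limma, adjusted p = 0.00255), while the mast cell genes Cpa3 and Mcpt4 were at 0 in all 6 cultures.

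For each marker, the genes with the most similar pattern were taken as those with the smallest root-mean-square distance of centred log2 values over the 6 cultures, among genes averaging 50 scaled reads or more. They were Commd7, Lsg1 and Ccdc137 for Ly6a (distances of 0.08 for each), Utp14b, Slc30a1 and Dyrk3 for Ly6c1 (0.19 to 0.21) and Ttc12, Tmem173 and Pts for Ly6e (0.06 to 0.14). They were Tmem45a, Fstl3 and Sfrp1 for Thy1 (0.20 to 0.26), Stc1, Pfn2 and Tm6sf1 for Nt5e (0.12 to 0.23) and Gab1, Gpm6b and Map3k1 for Cd34 (0.15 to 0.18). For Alcam they were Tspan14, Nsmce1 and Ptpla (0.05 to 0.08), for Cd44 Tspo, Slc50a1 and Vps28 (0.06 to 0.07), for Vcam1 Rai14, Hmga1 and Slc50a1 (0.06 to 0.07) and for Abcg2 Appbp2, Foxp1 and Vcp (0.02 to 0.04). Slc50a1 is near both Cd44 and Vcam1, and no other gene appears under more than 1 marker. With 6 cultures that share their scaling, these distances describe likeness of pattern and nothing more.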

How the data were processed

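Total RNA depleted of ribosomal RNA was sequenced as paired reads of 100 bp, per the labels' protocols. The submitters' processing notes name DESeq and the build mm10; the aligner and annotation are not given in those sources. The deposited raw values, 1 for the 2 merged libraries of a culture, are treated as a signal, because 92.2% of nonzero ones are not whole (tolerance 0.001). The authors' normalized values are log2 of raw value times a factor (0.825 to 1.52), less a constant per gene, as checked on 8369 genes with raw values above 200 (deviations up to 3.41e-06). Low values are raised towards a floor of 4.41, but many do not follow that form from the merged raw value: Thy1 and Cd34 in wild-type culture 1 entered the test above their scaled reads, so log2 differences of low genes depend on this step. The authors' fold is a signed ratio. Library depth is unknown, so no counting interval is given.

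The deposited log2 values, constant added back, were tested with limma 3.58.1 (R 4.3.3; eBayes with trend, two-sided, no covariates), after leaving out 10023 of 34174 genes (those averaging under 1 scaled read, and those on the floor throughout), with Benjamini-Hochberg adjustment over 24151. Exact two-sided permutation tests gave p = 0.1, the smallest possible, for Ly6a, Ly6c1, Ly6e, Thy1, Cd34 and Nt5e, 0.6 for Cd44 and Abcg2, and 1.0 for Alcam and Vcam1. GENCODE M21 matched 32874 IDs. Up to 4 genes per list were named by size of difference among those passed without overlap, and up to 2 by level among the others; Eng, Ptprc, Ly6c2 and the mast cell genes were named besides. The 10 markers and the lists were chosen with earlier results of these data known.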

Additional observations from a re-analysis of the deposited data

How the results depend on the processing

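The directions and calls of Thy1, Nt5e, Cd34, Ly6a and Ly6c1 were kept under all 17 alternatives, with log2 differences of 8.57 to 9.83, 3.19 to 3.75, 1.5 to 2.28, -2.39 to -1.83 and -2.85 to -2.24. Centring on the median of all genes tested, which moved that median to -0.31, called 4 markers lower (Ly6e and Abcg2 in addition) and 8605 of all genes lower; it turned Alcam to -0.18. Centring on the genes that averaged 50 scaled reads or more moved the median to 0.26, gave 5488 genes higher and 3794 lower, where the fit as reported gave 3907 and 4671, and turned Vcam1 to 0.12 and Abcg2 to 0.0699; quantile normalization turned Abcg2 to 0.078. Leaving out 1 culture at a time gave 5964 to 9238 calls over all genes, 3 to 4 markers higher and 2 to 2 lower; the log2 difference ran from -0.0199 to 0.55 for Alcam (-0.00293 without wild-type culture 2, -0.0199 without culture 3), from -0.50 to 0.0035 for Cd44 and from -0.30 to 0.26 for Vcam1. The cause of these shifts was not tested.

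What same-numbered cultures share beyond the number is not given in the sources used here. The correlations of their deviations were 0.0718, -0.0196 and 0.159, which cannot settle it. Between cultures of different number they ran from -0.16 to 0.11. With culture number as a block, 8123 genes were called, with 3 markers higher and 2 lower.

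Counts of small lists moved by more than 1.5 times, or up from 0, under some alternatives. The Ly6 family had 1 to 4 higher and 5 to 10 lower, integrins 2 to 6 higher and transporters 1 to 3 higher. The adenosine list had 3 to 6 lower, stromal antigens 2 to 6 lower and antigens lacking on stromal cells 0 to 1 higher. Endothelial genes had 2 to 6 higher and 1 to 3 lower, and blood genes 1 to 5 higher and 1 to 3 lower. Cardiomyocyte genes had 1 to 3 higher and 1 to 6 lower, pericyte genes 1 to 2 lower and fibroblast genes 0 to 1 lower. Merged libraries of unknown depth, 3 cultures a label and the floor limit what can be said of genes under about 5 scaled reads.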
